A study of Mus musculus with 24 samples.

Results

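The genes of the activator protein 1 (AP-1) transcription factor family were examined in H3K9ac peak lists of 4T1 spheroids. The 10 genes were chosen by name as members of the family, without a criterion on their signal: Fos, Fosb, Fosl1, Fosl2, Jun, Junb, Jund, Atf3, Maff and Batf, out of 21755 protein-coding genes on chromosomes 1 to 19 and X. For each gene and library it was recorded whether a peak touched the promoter, taken as 1 kb on either side of each annotated transcription start site, how wide the strongest such peak was, and how its fold enrichment ranked within the library. 9 of the 10 genes carried a promoter peak in all 12 libraries, as did 10777 of the 21755 genes (49.5%). Batf carried none in any library, as did 45.1% of the genes.

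4T1 is a mouse mammary carcinoma line, and the spheroids were collected on day 5. The 4 groups of 3 libraries were scramble, the control with a non-targeting guide, CPT1a knockout, KAT2a knockout, and CPT1a knockout with acetate. All groups were made with Cas9 under doxycycline control and selected with puromycin. The study's methods do not say whether these lines were pooled or clonal, and the labels do not say which of the guides against a gene a library carried. Palmitate was given at 75 µM to the scramble, CPT1a knockout and KAT2a knockout spheroids. The acetate group received 5 mM acetate, and its labels do not say whether palmitate was added as well, although a legend of the study describes these spheroids as grown with it. CPT1a brings long-chain fatty acids into mitochondria, KAT2a acetylates lysine 9 of histone H3, and the study asked whether their loss acts through this mark and whether acetate restores it. Peak lists show no coding edits, so the knockouts could not be checked here.

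AP-1 is a dimer of basic leucine zipper proteins. Fos proteins cannot pair with one another and bind DNA with a Jun partner, whereas Jun proteins also pair among themselves, and Atf3, Maff and Batf are relatives that exchange partners with them. The Fos and Jun genes are classic immediate early genes, switched on within minutes by MAP kinase signalling through factors already bound at their promoters, and FRA1, the product of Fosl1, is known for its role in the invasion of mammary carcinoma cells. H3K9ac marks the nucleosomes around active start sites, and a promoter that is about to be used, or has just been used, typically carries it.

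The 12 lists held 16212 to 34370 peaks. Calling depth, the average coverage by fragments recovered from the values of each list, was lowest in CPT1a knockout replicate 3 (0.554) and highest in scramble replicate 1 (2.52). The 3 scramble libraries, ranged from 1.87 to 2.52 and included the deepest of all. Another measure set the scramble libraries apart from the rest. The median GC content within 100 bp of the strongest promoter summit, over 10777 promoters, was 48.9% ± 1.25 in the scramble libraries. It was 64.0% ± 0.287 after loss of CPT1a, 60.9% ± 0.287 after loss of KAT2a and 60.4% ± 0.287 in the acetate group (SD, n = 3 each). No batch is given in the labels, so a difference in library preparation and the group cannot be told apart. All 8 epithelial markers examined carried a promoter peak in every library, whereas none of 6 endothelial markers carried one in any library, and 6 of 7 immune markers and 5 of 7 fibroblast markers had none in any library. Of the others, Cd68 was called in 2 libraries, Col1a1 in 11 and Pdgfra in all 12.

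The promoters of the members were read from the RefSeq table of GRCm38.p6, which gives 250 bases before and 50 bases after a start site. 9 of the 10 genes matched, all but Fosl1, with 3 start sites for Maff, which made 11 windows of 300 bases. They were searched on both strands for the TRE (TGANTCA), the site at which AP-1 binds, for the CRE (TGACGTCA), which ATF and CREB proteins bind, for the CArG box of serum response factor and for the kappaB site of NF-κB. These letter patterns do not contain one another. The 5 windows with a match, from 4 genes, are shown because these are the motifs of factors known to act at such genes. Capitals mark the matches.
Fosl2 promoter, chr5:32136222-32136521, plus strand: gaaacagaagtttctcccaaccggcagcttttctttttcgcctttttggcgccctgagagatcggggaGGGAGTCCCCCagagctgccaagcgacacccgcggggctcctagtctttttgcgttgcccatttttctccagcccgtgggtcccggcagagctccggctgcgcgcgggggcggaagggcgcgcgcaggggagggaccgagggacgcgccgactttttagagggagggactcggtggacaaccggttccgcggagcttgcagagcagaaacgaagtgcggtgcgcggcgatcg
Maff promoter, chr15:79347270-79347569, plus strand: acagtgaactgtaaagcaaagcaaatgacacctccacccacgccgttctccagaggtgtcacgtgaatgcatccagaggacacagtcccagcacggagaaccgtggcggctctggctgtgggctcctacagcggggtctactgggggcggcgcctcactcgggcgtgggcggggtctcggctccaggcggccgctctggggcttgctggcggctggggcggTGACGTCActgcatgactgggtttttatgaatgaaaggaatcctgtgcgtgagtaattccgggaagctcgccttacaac
Maff promoter, chr15:79348152-79348451, plus strand: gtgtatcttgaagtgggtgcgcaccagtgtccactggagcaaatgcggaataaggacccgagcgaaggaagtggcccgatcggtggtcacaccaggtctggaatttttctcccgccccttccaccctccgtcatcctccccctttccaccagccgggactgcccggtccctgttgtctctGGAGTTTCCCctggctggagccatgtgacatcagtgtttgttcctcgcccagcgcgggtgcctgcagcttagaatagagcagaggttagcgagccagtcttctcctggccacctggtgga
Fos promoter, chr12:85473640-85473939, plus strand: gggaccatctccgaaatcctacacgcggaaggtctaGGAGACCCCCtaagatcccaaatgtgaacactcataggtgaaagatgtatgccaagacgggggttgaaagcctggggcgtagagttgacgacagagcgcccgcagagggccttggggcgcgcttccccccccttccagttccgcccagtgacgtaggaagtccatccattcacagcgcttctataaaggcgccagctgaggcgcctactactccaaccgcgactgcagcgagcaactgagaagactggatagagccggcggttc
Fosb promoter, chr7:19309996-19310295, minus strand: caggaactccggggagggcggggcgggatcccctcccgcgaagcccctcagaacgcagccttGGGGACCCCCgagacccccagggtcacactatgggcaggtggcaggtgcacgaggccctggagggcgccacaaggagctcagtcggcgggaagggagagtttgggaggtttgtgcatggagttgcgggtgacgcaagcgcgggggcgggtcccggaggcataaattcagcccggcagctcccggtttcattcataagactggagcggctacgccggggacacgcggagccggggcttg
In the Maff window that begins at 79347270, the CRE begins at -29 from the start site, and the kappaB matches of Fosl2 begin at -182 and -181 from its start site and overlap. None of the 11 windows held a TRE or a CArG box, 1 held a CRE and 4 held a kappaB match. Of all 32851 promoter windows in the table, 7.81% held a TRE, 1.79% a CRE, 1.63% a CArG box and 4.51% a kappaB match. A peak lay over each of the 5 windows shown in all 12 libraries. The windows of Jund and Atf3 were overlapped by a peak in 8 libraries, and the first Maff window and that of Batf in none. The Jund window was built on the RefSeq start site at 70697739, upstream of the annotated site at 70698949 used elsewhere for Jund. A peak covered that annotated site in 11 of 12 libraries, and the motif search did not reach it. Sites farther than 250 bases before a start site and variants of these patterns were not searched. A match describes letters only, and binding was not measured.

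Fold enrichment was set by the authors' caller within each library, so each promoter was given a rank percentile, the share of the 10777 promoters that lay below it in the same library. Within the Fos family, Fosl1 (chr19:5447547-5455946, plus strand) and Fosl2 (chr5:32135801-32157842, plus strand) stood high, with medians over the 12 libraries of 89.3 and 89.35. Fos (chr12:85473890-85477273, plus strand), the founding member, had a median of 39.7, and Fosb (chr7:19302696-19310051, minus strand), a close relative of Fos that is induced with it, had 31.1. Fosl1 and Fosl2 each lay above the 75th percentile in 10 of 12 libraries, while Fos lay below the 50th in 10 and Fosb in all 12. As an example in scramble replicate 1, the fold enrichment was 32.0 at Fosl1, 23.4 at Fosl2, 18.2 at Fos and 15.6 at Fosb, against a median of 18.7 over all promoters.

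The 3 Jun genes also ranked high. Jun (chr4:95049034-95052222, minus strand), the partner that most Fos dimers use, had a median of 93.2, Junb (chr8:84974484-84978718, minus strand), which is induced with it, had 88.1, and Jund (chr8:70698949-70700616, plus strand), which is expressed more steadily than the others, had 82.0. Atf3 (chr1:191170296-191218039, minus strand), a stress-induced factor, had a median of 20.8, and Maff (chr15:79346621-79359076, plus strand), a small Maf protein without an activation domain, had 43.4. The order of the medians was therefore Jun, Fosl2, Fosl1, Junb, Jund, Maff, Fos, Fosb and Atf3. Most neighbours in it were not separated, with the higher above the lower in 6 to 9 of 12 libraries outside the step from Jund to Maff. The SD of the rank over the 12 libraries was between 11.01 points at Atf3 and 21.2 points at Junb, while the median SD over all promoters was 14.0. The step from Jund to Maff was the widest, at 38.6 points, and Jund lay above Maff in 11 of 12 libraries.

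**Figure D1:**
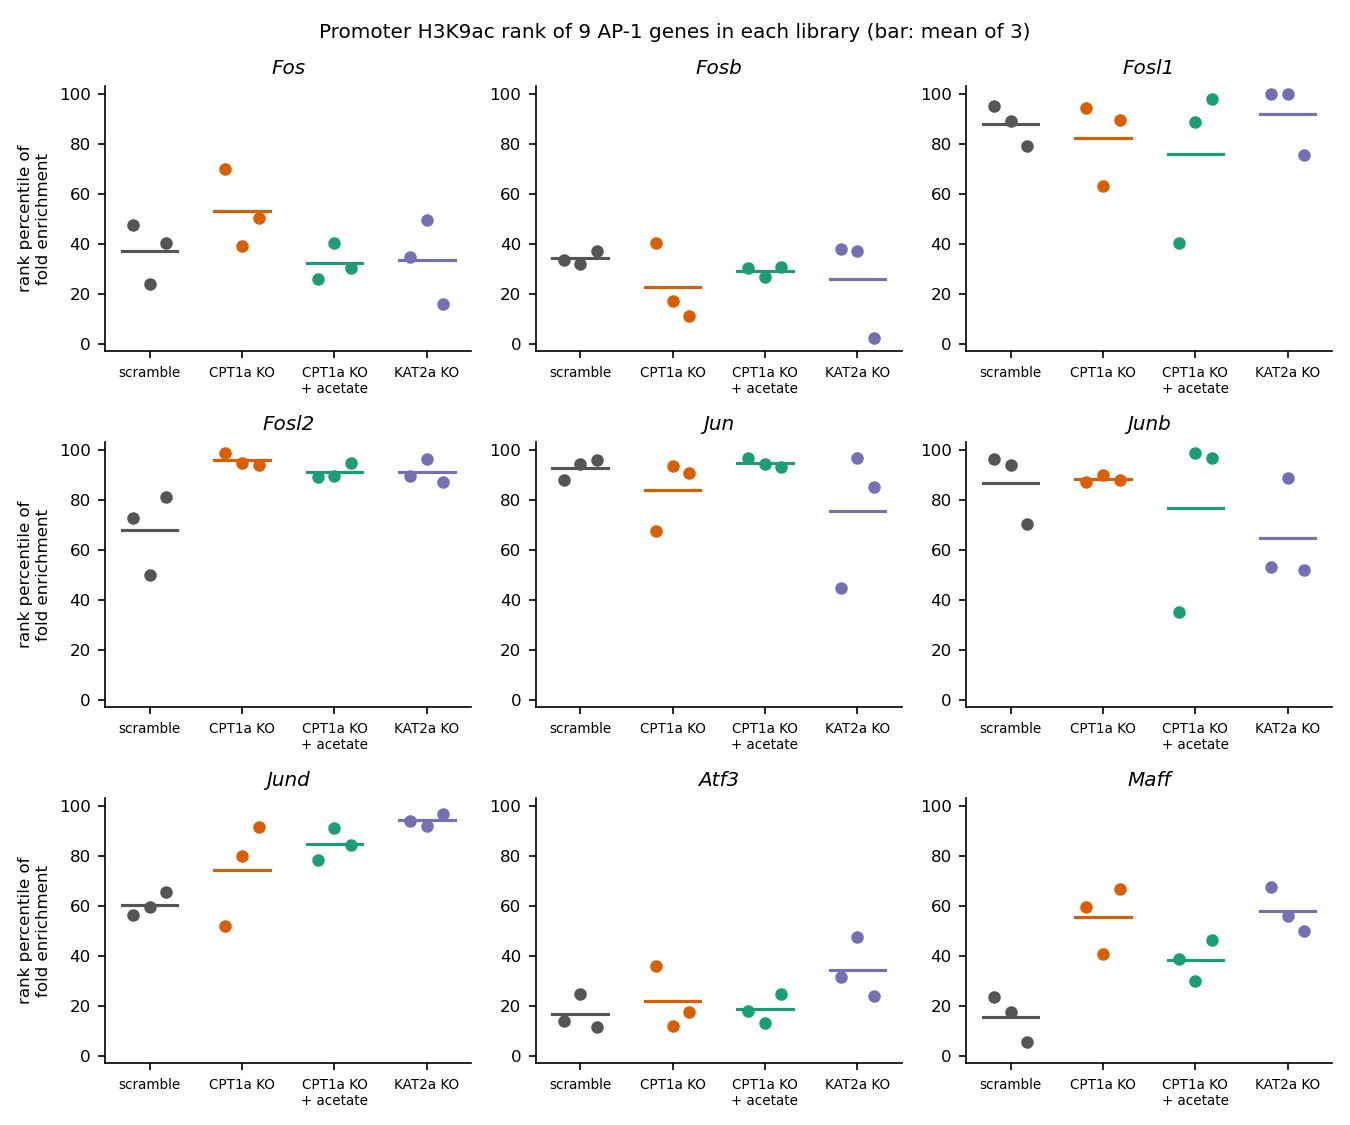
Rank percentile of promoter fold enrichment (vertical axis) of 9 AP-1 genes in the 3 libraries of each group (points) with the group mean (bar). Maff sits at 5.66 to 23.3 in scramble and above that in the 9 other libraries, Jund sits at 91.7 to 96.8 in KAT2a knockout, and Fos and Fosb overlap between all groups except for Fosb with acetate and in scramble.

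Loss of CPT1a was compared with scramble first. Fosl2 and Maff ranked higher in CPT1a knockout, and the other 7 members did not pass the test. The rank of Fosl2 was 72.6, 50 and 81.0 in the scramble libraries and 98.5, 94.8 and 94.0 in the CPT1a knockout libraries. All 3 knockout libraries thus lay above all 3 scramble libraries, with a difference of 27.9 points (1.29 ± 0.295 SE on the normal-score scale of the fit, adjusted p = 0.0181, limma). Maff moved further along the scale. It stood at 23.3, 17.4 and 5.66 in scramble and at 59.5, 40.5 and 66.8 in CPT1a knockout, again without overlap and with a difference of 40.1 points (1.23 ± 0.287, adjusted p = 0.0191, limma). Over all promoters 9.84% passed the threshold in this comparison and 4.65% passed it upwards, against 2 of 9 members. The knockout lay above scramble without overlap at 2 of 9 members and at 15.5% of all promoters. The median difference of the 9 members was 5.18 points and that of all promoters 0.217. As the libraries are bulk spheroids, fewer cells with the mark and less of it per cell cannot be told apart, and as the labels do not say whether replicates were separate cultures, the p-values measure only the spread between these libraries.

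The remaining members overlapped between CPT1a knockout and scramble. Fos stood at 47.5, 24.0 and 40.4 in scramble and at 69.96, 39.1 and 50.3 in the knockout (adjusted p = 0.404, limma). Jun stood at 88.0, 94.1 and 95.7 in scramble and at 67.6, 93.3 and 90.7 in the knockout, where replicate 1 was the low one (adjusted p = 0.581). Fosb, Fosl1, Junb, Jund and Atf3 differed by between -11.3 points at Fosb and 14.0 points at Jund, with adjusted p from 0.336 to 0.933. In the knockout, the SD of these ranks ran from 1.49 points at Junb to 20.4 points at Jund.

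The calls at Fosl2 and Maff did not hold under every setting. With the trend of rank with promoter GC content removed, the differences were 20.4 points for Fosl2 and 35.0 points for Maff and neither passed (adjusted p = 0.075 and 0.0539, limma). Ranks by -log10 p put the difference of Fosl2 at 5.07 points (adjusted p = 0.319) and that of Jund at 20.3 points, which then passed (0.0124). Calling depth as a covariate ended the call of Maff, at 1.35 ± 0.349 SE on the normal-score scale (adjusted p = 0.0537, limma). Leaving out scramble replicate 2 or CPT1a knockout replicate 1 ended that of Fosl2 (0.0592 and 0.0514), as leaving out scramble replicate 3 or CPT1a knockout replicate 3 did that of Maff (0.0801 and 0.0592). The promoters of the members are rich in GC, from 54.8% at Atf3 to 65.0% at Jund within 1 kb of their start sites, while the median of all promoters called in every library was 50.3%.

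In KAT2a knockout against scramble, Jund and Maff ranked higher. Jund stood at 56.3, 59.4 and 65.4 in scramble and at 93.8, 91.7 and 96.8 in KAT2a knockout. These libraries did not overlap, and the difference was 33.7 points (1.33 ± 0.313, adjusted p = 0.0348, limma). Maff stood at 67.5, 55.8 and 49.8 in KAT2a knockout, 42.2 points above scramble (1.28 ± 0.287, adjusted p = 0.0289). The third gene without overlap was Fosl2, at 89.4, 96.2 and 87.0 in KAT2a knockout, whose difference of 23.0 points did not pass (adjusted p = 0.101). Over all promoters, 3.68% passed in this comparison and 1.57% passed upwards, against 2 of 9 members, and 14.3% lay higher without overlap, against 3 of 9. The median difference was 3.95 points over the members and 0.104 over all promoters. As this comparison shares the scramble libraries with the one before, the values of Maff in both are not independent.

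The other members of the KAT2a comparison did not pass. Atf3 stood at 31.7, 47.5 and 23.8 in the knockout and at 13.8, 24.7 and 11.3 in scramble, which overlapped only between the lowest knockout library and the highest scramble library (adjusted p = 0.255, limma). Junb stood at 53.1, 88.4 and 52.1 in the knockout and at 96.0, 93.8 and 70.4 in scramble (adjusted p = 0.406). Jun, at 44.9, 96.7 and 85.2, held its lowest value of all 12 libraries in KAT2a knockout replicate 1, and Fosb, at 37.9, 37.0 and 2.22, held its own in replicate 3. Neither passed (adjusted p = 0.458 and 0.521). For Jund and Maff, the call was lost when any of the 6 libraries compared was left out (adjusted p from 0.0528 to 0.107), when the GC trend was removed (0.0795 and 0.061) and when calling depth was a covariate (0.104 and 0.0628). That of Jund was also lost on quantile normalised log2 values (0.0696). With the GC trend removed, the differences were 28.2 points for Jund and 38.4 points for Maff. With depth as a covariate they were 0.994 ± 0.290 and 1.37 ± 0.321 SE on the normal-score scale.

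**Figure D2:**
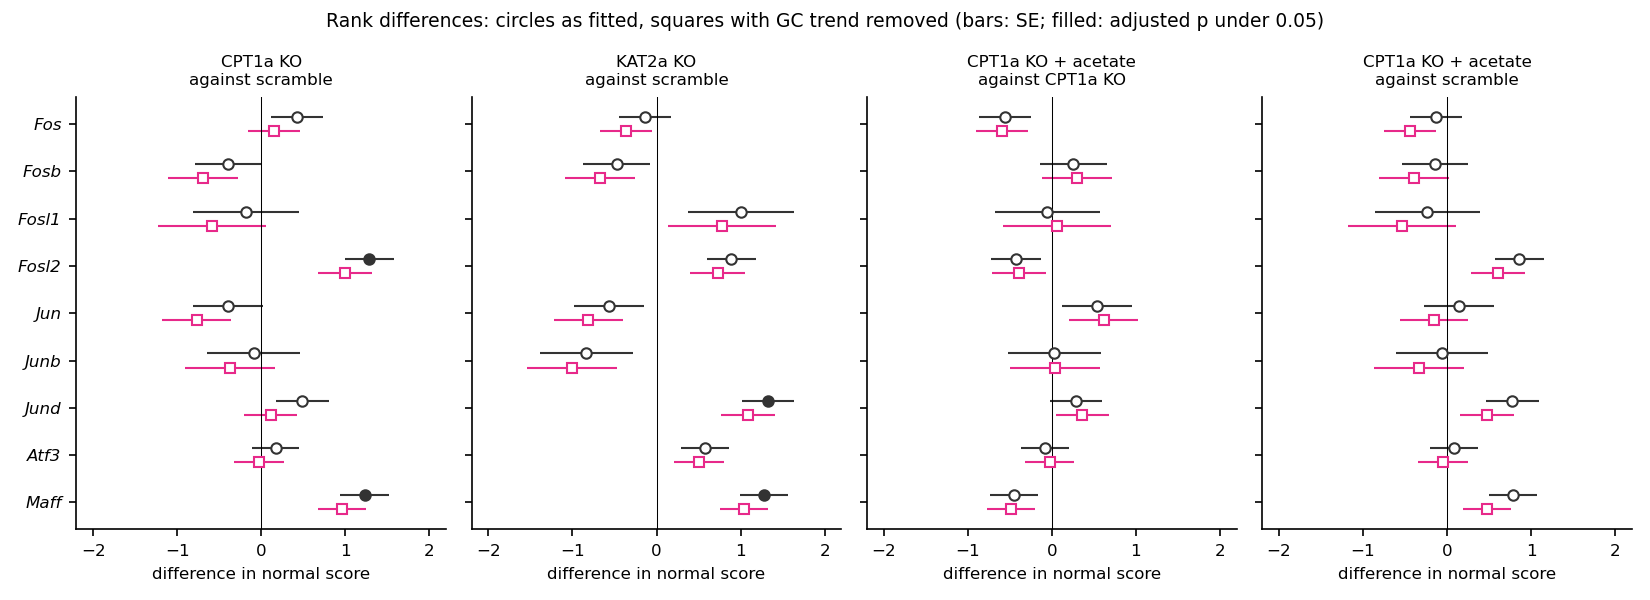
Difference between groups in the normal score of the promoter rank (horizontal axis, bars SE) for 9 genes in 4 comparisons. Circles show the fit as described and squares the same with the GC trend removed, and filled symbols pass an adjusted p of 0.05. The filled circles are Fosl2 and Maff for CPT1a knockout and Jund and Maff for KAT2a knockout, and no square is filled.

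The acetate group was next compared with CPT1a knockout, where Fosl2 and Maff had passed upwards against scramble and no member downwards. No member passed or was free of overlap, where 14.2% of all promoters were, and limma called 0 of 10777 promoters (0.0%), with 1005 promoters and 0 members at an unadjusted p under 0.05. Maff, higher in CPT1a knockout than in scramble, stood at 38.6, 30.0 and 46.3 with acetate, between the other groups, with a difference of -17.3 points from CPT1a knockout (adjusted p = 0.69, exact permutation p = 0.2). Fosl2 stood at 88.9, 89.3 and 94.5 with acetate, a difference of -4.84 points (adjusted p = 0.718). Fos stood at 25.9, 40.4 and 30.2 with acetate, a difference of -20.99 points with overlap between the groups (adjusted p = 0.618). Fosl1 and Junb were each lowest in acetate replicate 1, at 40.4 and 34.9, while the other acetate libraries held them at 88.7 or higher. The differences of Maff, Fosl2 and Fos were larger than the pooled SD within the groups, at 11.2, 2.78 and 12.2 points. So was that of Jun, which went the other way, at 10.8 points against a pooled SD of 10.1. The groups overlapped at all of these genes and none passed, which does not show that they were alike.

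Against scramble, the acetate libraries again had no member past the threshold, where 5.33% of all promoters passed. At an unadjusted p under 0.05 there were 3 members, Fosl2, Jund and Maff, and 22.8% of all promoters. Jund stood at 78.4, 90.9 and 84.1 with acetate, 24.1 points above scramble (adjusted p = 0.162, limma), Fosl2 was 23.0 points above it (0.104) and Maff 22.8 points (0.125). These 3 were free of overlap upwards, as were 14.9% of all promoters. Fosb lay lower without overlap, at 30.4, 26.8 and 30.5 against 33.7, 31.8 and 37.0, a difference of -4.95 points (adjusted p = 0.87), and 17.0% of all promoters did so. In the ranking by -log10 p, Jund and Maff passed (0.0159 and 0.00375), and at an equal calling depth Maff did (0.047).

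Summit positions were compared as well. In the 3 scramble libraries the strongest summit of Fosl2 lay 2018, 1938 and 1934 bp inside the gene, counted from the nearest start site. In the other 9 libraries it lay between 26 bp before and 537 bp behind that site. The GC content around it was 47.3% ± 0.995 in the scramble libraries, against 69.3% ± 0.287 after loss of CPT1a, 66.5% ± 4.60 after loss of KAT2a and 68.0% ± 1.44 in the acetate group (SD, n = 3 each). Maff showed a like change in GC content, from 55.4% ± 3.73 in scramble to 73.3% ± 2.55, 70.5% ± 1.15 and 73.0% ± 0.574 in the same order, with summits within 270 bp of a start site in all libraries. At Jund it was 67.3% ± 3.53 in scramble and 67.0% ± 6.18 in KAT2a knockout.

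Promoters at large showed the same. In CPT1a knockout the GC content at the summit lay above all scramble libraries without overlap for 65.5% of the 10777 promoters and for 3 of 9 members, Fosl2, Maff and Atf3. The figures were 52.0% and 2 of 9 in KAT2a knockout, and 47.3% and 3 of 9 with acetate. The GC trend removed above was that of promoter GC content, which is the same in every library. The part of the summit shift in the rank differences was therefore not tested. The summit of Fos moved among libraries of the same group as well as between groups. It lay at -802, -184 and -772 bp from the nearest start site in scramble, at -151, 287 and 279 bp in CPT1a knockout, at -1293, -778 and -1376 bp with acetate and at -374, 293 and -112 bp in KAT2a knockout. The acetate libraries, of which 2 lay farther upstream than any other library, still overlapped scramble. Jund ranged from 464 to 1293 bp and Fosb from -46 to 1197 bp, each over the 12 libraries, and Atf3 from 56 to 325 bp. The other 3 members kept their place in most libraries. Fosl1 had its summit at 462 to 467 bp in 10 of 12 libraries and at 436 and 587 bp in the others. That of Jun lay 618 to 701 bp before the start site in 11 libraries and 517 bp behind it in KAT2a knockout replicate 3. Junb had its summit 371 to 615 bp inside the gene in 11 libraries and at -2042 bp, upstream of the gene, in KAT2a knockout replicate 1.

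**Figure D3:**
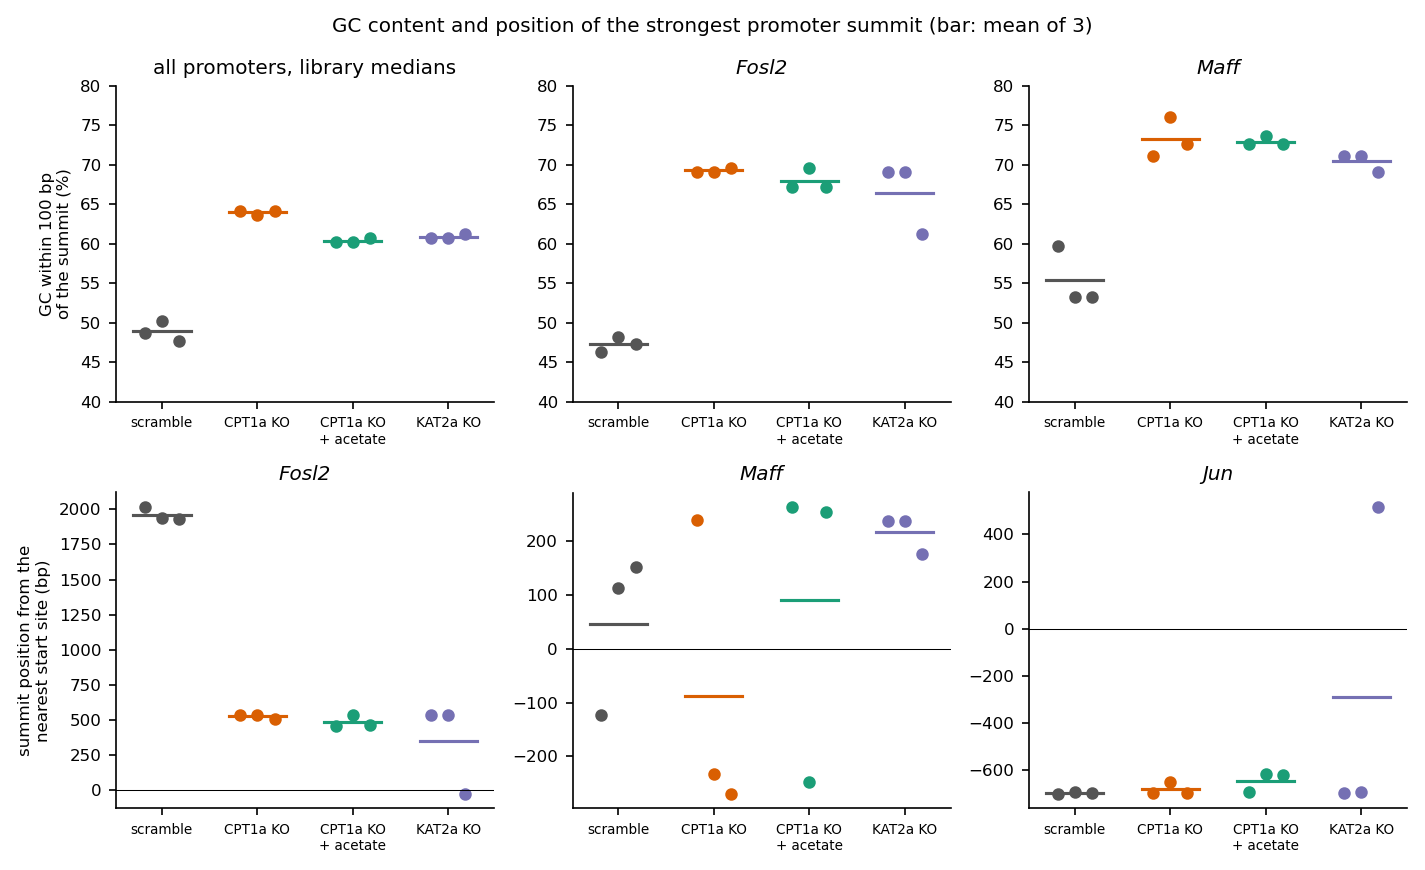
Top row, GC content within 100 bp of the strongest promoter summit (%): library medians over 10777 promoters, then Fosl2 and Maff. Bottom row, position of the summit from the nearest start site (bp) at Fosl2, Maff and Jun. Points are libraries and bars group means. Scramble lies at 47.8 to 50.2% in the first panel and the other groups at 60.2 to 64.2%, and the Fosl2 summit lies at 1934 to 2018 bp in scramble only.

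The width of a peak is the length of the acetylated stretch that the caller joined. The promoter peaks of most members were broader than the 2089 bp that was the median over all promoters and libraries. Junb (median 4465 bp), Fosl2 (7506 bp) and Fosl1 (4336.5 bp) were the broadest, Fosb (1624 bp) and Atf3 (1440 bp) were narrower than the median, and Maff measured 2355 bp. The Fosl2 peak reached 8436 bp in scramble replicate 1. No other protein-coding start site lay in the strongest promoter peak of any member.

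Jund was the member whose width passed the test. Its peak measured 2601, 1553 and 2086 bp in scramble, 3428, 3677 and 2706 bp in CPT1a knockout and 3996, 3886 and 3619 bp in KAT2a knockout. Both knockouts lay above scramble without overlap, as 2.5% and 6.32% of all promoters did in these comparisons, at 1.59-fold (adjusted p = 0.0359, limma on log2 width) and 1.88-fold (0.0478). With acetate it measured 2923, 3065 and 3865 bp, which was 1.60-fold (adjusted p = 0.0659) and also free of overlap, as at 3.65% of all promoters. In KAT2a knockout the peaks of Fos and Fosb were likewise wider without overlap. Fos measured 3638, 2838 and 2692 bp in scramble and 3945, 3802 and 3763 bp in KAT2a knockout (1.27-fold, adjusted p = 0.259), and Fosb measured 1549, 1273 and 1167 bp against 2142, 3842 and 1851 bp (1.88-fold, adjusted p = 0.315), and neither passed. All promoters moved by a median of -0.38, -0.16 and -0.26 log2 units in these 3 comparisons, and 26.4%, 2.9% and 5.98% passed, of which 1.48%, 0.937% and 0.789% of all promoters were wider. Acetate against CPT1a knockout gave 0 calls by limma among members and among all promoters (0.0%), with 0 members and 232 promoters at an unadjusted p under 0.05.

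The direction at Jund depended on how neighbouring peaks were joined. In all 3 scramble libraries at least 2 peaks overlapped the Jund promoter, against 1 peak in all CPT1a knockout and KAT2a knockout libraries. After merging peaks within 500 bp, Jund measured 6486, 3929 and 6315 bp in scramble and 3742, 3677 and 2706 bp in CPT1a knockout, which reversed the difference to -0.70 log2 units (adjusted p = 0.0319, limma), and that of KAT2a knockout became -0.28 (adjusted p = 0.394). The higher width of Jund thus held for peaks as deposited and not for merged ones. For unmerged peaks, the call in CPT1a knockout was lost without scramble replicate 2 or 3, CPT1a knockout replicate 1 or 2, or KAT2a knockout replicate 1 (adjusted p from 0.0549 to 0.0957, limma). The call in KAT2a knockout was lost when any 1 of 10 libraries was left out, among them all 3 of that group and scramble replicates 2 and 3 (0.0512 to 0.151). The replicate block, which takes the replicate number into the fit and leaves the fold unchanged, ended both (0.0522 and 0.0797).

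Breaks were found at other members as well. At least 2 peaks overlapped the promoter in 9 of 12 libraries at Atf3, in 7 each at Fosb and Junb, and in 2 at Fosl2. At Fosl2 the peak was interrupted near the first start site in scramble replicates 2 and 3, where the strongest piece measured 4045 and 4083 bp, and was a single peak over the promoter in the other 10 libraries, of 7207 to 8436 bp. After merging, the 12 libraries held 7207 to 9507 bp. The merged mean was 8563 bp in scramble, 7526 bp in CPT1a knockout, 7929 bp in KAT2a knockout and 7676 bp with acetate. The other groups were thus wider than scramble in the mean only for peaks as deposited. At Jun, 7 of 12 libraries held more than 1 peak over the promoter, in every group, and its start site itself was covered in 10 of 12. The start site of Junb at 84978718 was covered by a peak in 8 of 12 libraries and its other site, at 84976542, in all 12. The strongest peak of Fosb measured 692 bp in CPT1a knockout replicate 3, the shallowest library, where 3 peaks overlapped the promoter. It measured 3842 bp in KAT2a knockout replicate 2, where 1 peak did. For peaks as deposited, the tests of width at Fosl2 and Fosb changed when single libraries were left out. Without scramble replicate 1, where the Fosl2 peak was whole, the width of Fosl2 passed against scramble in CPT1a knockout, KAT2a knockout and the acetate group (adjusted p = 0.0173, 0.00943 and 0.0162, limma), as it did with all libraries kept when widths were ranked (0.0129, 0.0218 and 0.0284), and without CPT1a knockout replicate 3 that of Fosb passed in CPT1a knockout (0.0231).

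**Figure D4:**
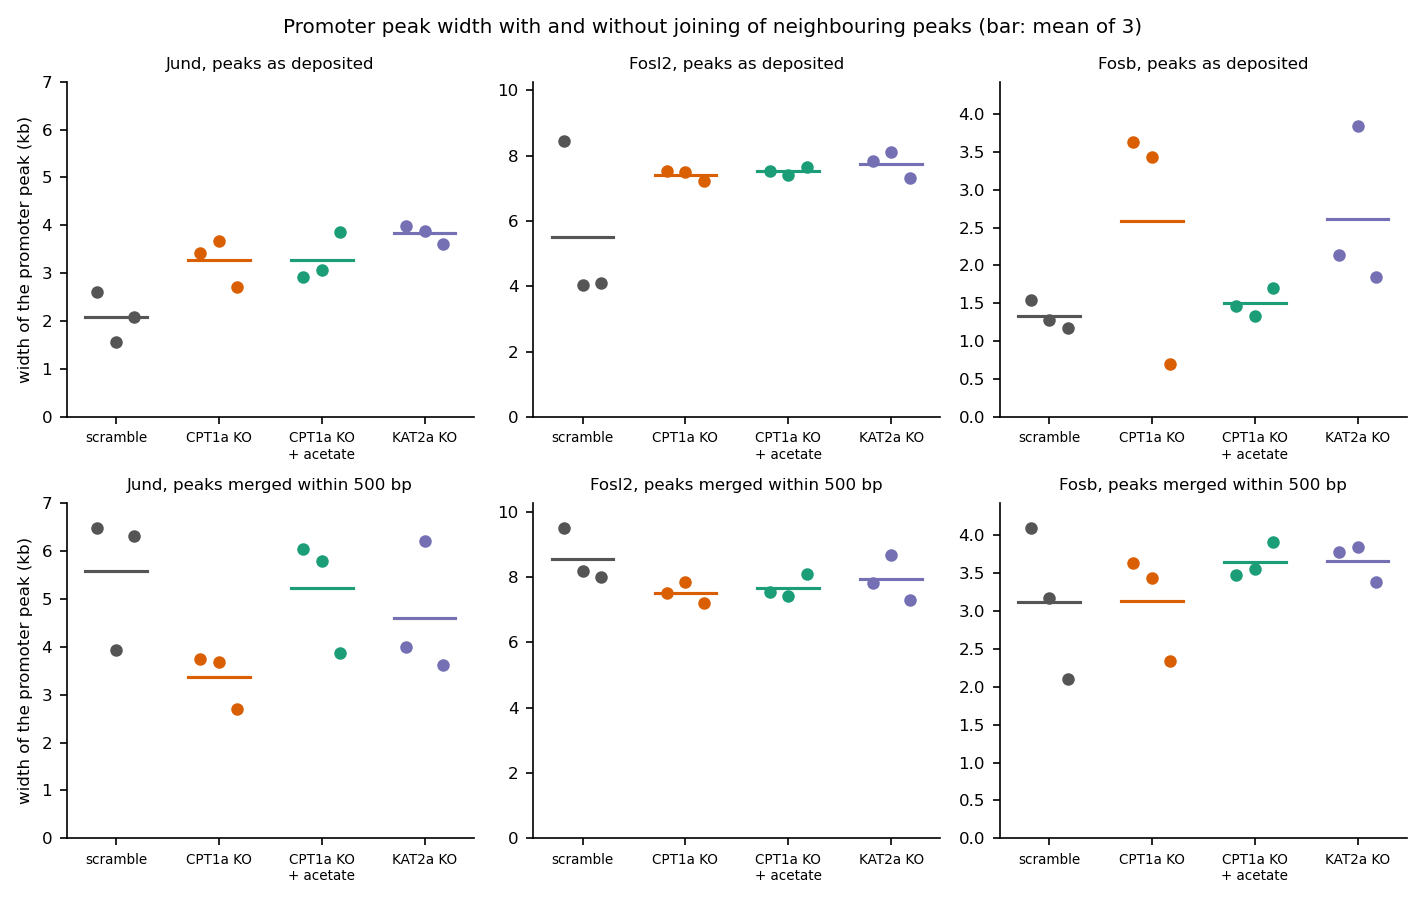
Width of the strongest promoter peak (kb) of Jund, Fosl2 and Fosb in the 3 libraries of each group (points, with the mean as a bar), for peaks as deposited (top) and merged within 500 bp (bottom). Jund in scramble measures 1553 to 2601 bp as deposited and 3929 to 6486 bp when merged.

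Beyond the promoters, the gene bodies held few peaks except in Fosl1, Atf3 and Batf. The peaks covered 93.1 to 100.0% of the Jund gene and 96.2 to 100.0% of Junb, which are short genes, and 1.5 to 10.1% of Atf3. Fosl1 carried in all 12 libraries a further broad peak with its summit 8.94 to 9.42 kb behind the first start site. The gene is 8400 bp long, so this peak reached into its end while the summit lay beyond it. Its fold enrichment was 13.3 to 38.2 and its width 2422 to 6355 bp. Whether it lay over a start site of a neighbouring gene was not examined. In Atf3, whose far start site at 191218039 was called in no library, 11 libraries held a weak peak inside the gene, of 4.09 to 7.23-fold. The downstream start site of Fosl2 at 32146521 was likewise without a call.

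Batf (chr12:85686669-85709087, plus strand), which pairs with Jun in lymphocytes, had no promoter peak but 1 peak in intron 2 in every library. Its summit lay within a stretch of 50 bp, at 85698349 to 85698399, which is 11.7 kb behind the start site, and its width was 559 to 663 bp. The narrowest promoter peaks of the other members were those of Fosb, at 692 bp, and Atf3, at 719 bp, both in CPT1a knockout replicate 3. The fold enrichment was 18.7, 12.7 and 13.8 in scramble, 36.5, 32.2 and 14.6 in CPT1a knockout, 22.8, 25.8 and 18.7 with acetate and 13.3, 20.97 and 19.2 in KAT2a knockout. Among all peaks of a library, it stood between percentiles 55.2 and 91.3. CPT1a knockout held both the highest and, by rank, the lowest of these values. No annotated start site lies in this stretch, and no other peak was called within 50 kb of the gene in any library. The 200 bases around the median summit (chr12:85698273-85698472, GRCm38.p6, plus strand) are given because they hold the only mark found at this gene. They contain 70.5% GC, and the capitals mark a kappaB match.
Batf intron 2 peak: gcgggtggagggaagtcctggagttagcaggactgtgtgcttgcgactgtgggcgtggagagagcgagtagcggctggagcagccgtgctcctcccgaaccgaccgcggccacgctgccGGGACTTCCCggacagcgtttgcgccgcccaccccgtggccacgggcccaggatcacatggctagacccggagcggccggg

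**Figure D5:**
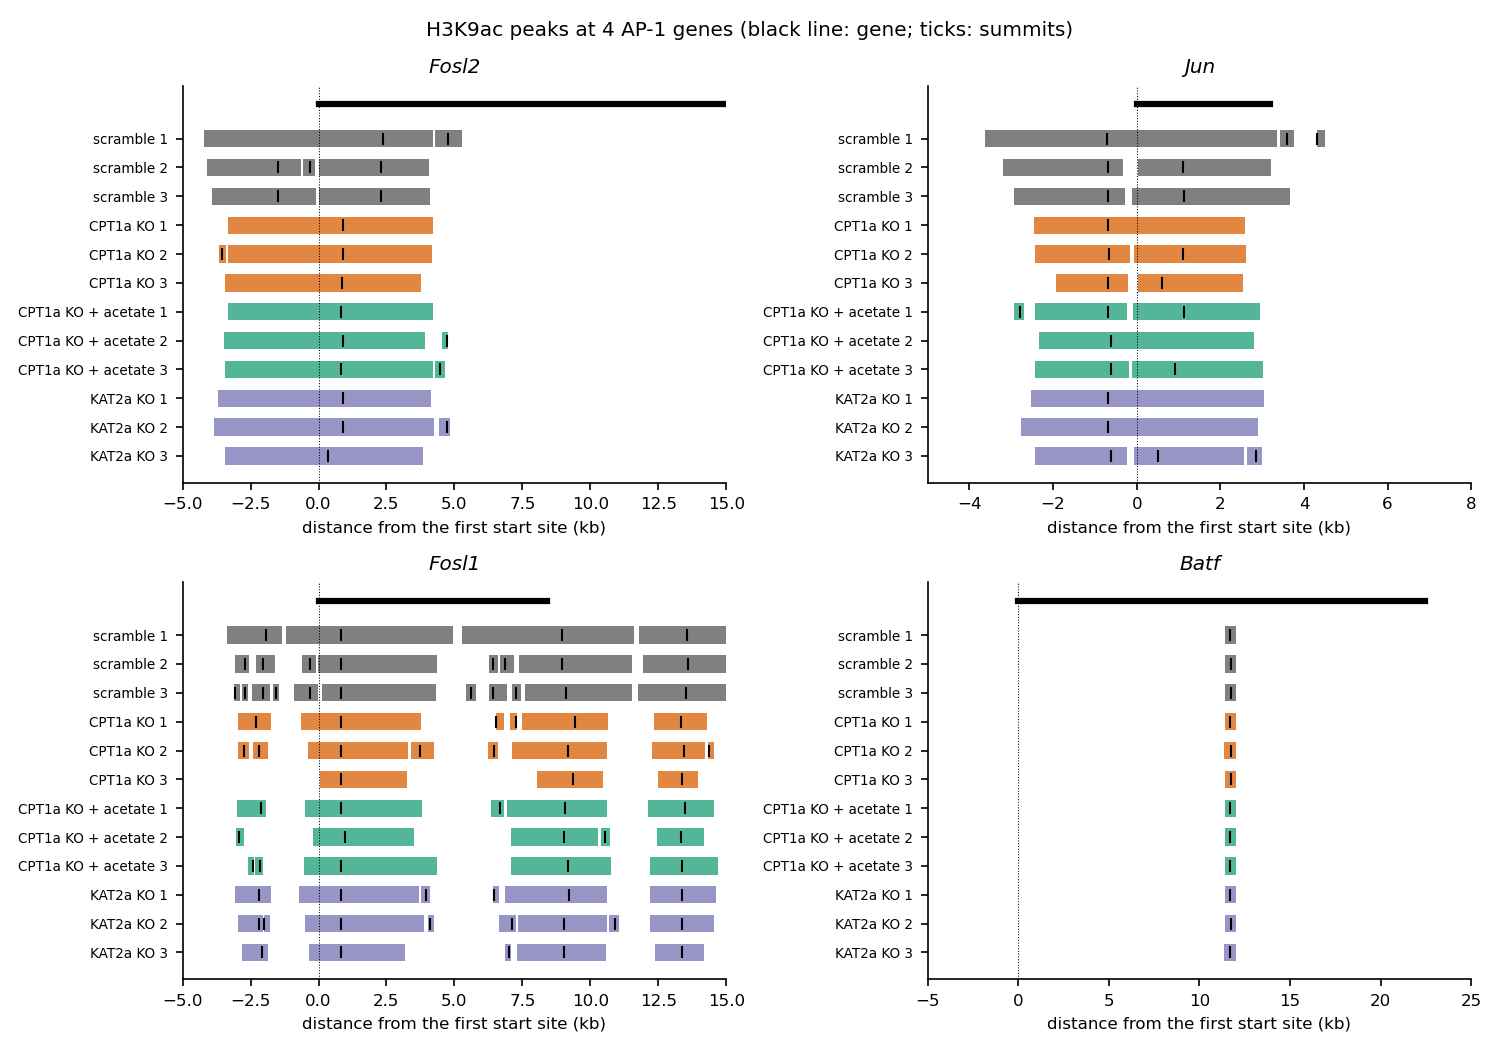
Peaks (coloured bars) and their summits (black ticks) in the 12 libraries at Fosl2, Jun, Fosl1 and Batf, by distance from the first start site (kb), with the gene as a black line. Fosl2 is broken at the start site in scramble replicates 2 and 3, and Batf carries 1 narrow peak at 11.7 kb in each library.

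The surroundings differed among the members. Within 50 kb of the gene and outside its promoter, Fosb had a median of 17.0 peaks per library, Fosl1 14.0, Jund 10.5, Junb 9.5, Maff 6.0, and Fos and Jun 5.0 each. Atf3 had a median of 1.0. Fosl2 had 1 peak in 1 library and none in the other 11, although its promoter domain was the broadest in the median. The counts include peaks at promoters of other genes, which were not set apart. No difference between groups was tested for these counts.

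Genes that work with AP-1 were placed beside the members. Of 14 other bZIP partners, 13 matched 1 gene record each, 10 had a promoter peak in all libraries, and 0 passed in any comparison. Over all promoters, 9.84% passed in CPT1a knockout against scramble, 3.68% in KAT2a knockout against scramble, 0.0% with acetate against CPT1a knockout and 5.33% with acetate against scramble. Of 22 kinases and factors that feed into AP-1, 21 had a promoter peak in all libraries. Srf, the factor that binds the CArG box of Fos, ranked higher in CPT1a knockout (79.7 ± 8.85 against 31.7 ± 30.3, SD, n = 3 each, adjusted p = 0.0296, limma), and Map3k5, a stress kinase that acts on JNK and p38, ranked lower in KAT2a knockout (69.6 ± 3.83 against 92.1 ± 5.27, adjusted p = 0.0469). None of the 21 passed in the acetate comparisons.

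Among 22 other immediate early genes, 21 had a promoter peak in all libraries. Rhob, a small GTPase gene, ranked higher in CPT1a knockout (86.3 ± 11.4 against 56.1 ± 19.1, adjusted p = 0.0465, limma), and 0 of the 21 passed in the other comparisons. Of 20 genes known as AP-1 targets, 13 were called throughout. Spp1, which encodes the secreted protein osteopontin, ranked lower in both knockouts, at 57.2 ± 18.9 in scramble, 5.75 ± 3.08 in CPT1a knockout (adjusted p = 0.00323) and 5.07 ± 2.47 in KAT2a knockout (adjusted p = 0.008). Areg, which encodes the growth factor amphiregulin, ranked lower in CPT1a knockout, at 52.8 ± 14.2 against 89.8 ± 3.50 (adjusted p = 0.0338). Mmp10, Mmp13 and Ereg had no promoter peak in any library. Among the epithelial markers, Epcam and Cldn7 ranked higher in KAT2a knockout (adjusted p = 0.022 and 0.0221), 2 of 8 markers where 1.57% of all promoters passed upwards, and the part of this in the values of Jund and Maff was not tested.

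The genes whose rank followed those of Fos and Jun most closely over the 12 libraries were sought among all 10777 promoters. For Fos these were Rrp7a, Grin2d and Sat1, with Pearson correlations of 0.867, 0.837 and 0.834. For Jun they were Ccnf, Smim15 and Ppp1r10, with 0.944, 0.919 and 0.895. They were picked as the highest of all promoters over 12 libraries that share depth and base composition, and are given as a description.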

How the data were processed

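H3K9ac was profiled by ChIPmentation, in which Tn5 tags immunoprecipitated chromatin on the beads. The authors aligned reads to mm10; the methods name BWA and the submitters' notes Bowtie2, and both antibody numbers given differ. The deposited fold enrichment is a ratio of summit pileup to local background within 1 library, and the deposited -log10 p and q and the deposited score are those of MACS2, whose version, settings and use of inputs are not given in the sources used here. Values were not scaled between libraries, and the Drosophila spike-in and the 12 inputs were not analysed here. Peaks passed a q of 0.01.

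Peaks on chromosomes 1 to 19 and X were assigned to promoters within 1 kb of GENCODE vM21 start sites (overlap of at least 1 bp). Ranks of fold enrichment over 10777 promoters called in all 12 libraries were turned into normal scores and fitted with limma 3.58.1 (4 group means, 4 comparisons, Benjamini-Hochberg over all promoters, threshold 0.05), and widths likewise on the log2 scale. The fit was tested on simulated data. Exact permutation over 20 assignments cannot fall below 0.1. Alternatives were -log10 p, quantile normalisation, other windows and overlaps, a stricter q, GC trend removal, equal depth or depth as a covariate, merged or ranked widths, a replicate block and each library left out. The calling depth was recovered by inverting the MACS2 formulas. The members, lists and naming rule (all 10 members, up to 3 passing genes per other list and comparison, and the 3 promoters most alike to Fos and Jun) were chosen with earlier results of these data known. The gene Ddit3 has more than 1 record and was left out.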

Additional observations from a re-analysis of the deposited data

How the results depend on the processing

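The limits are 3 libraries a group, calling depths from 0.554 to 2.52, no stated batch and a control that differs in summit GC content. Of 360 differences of single members recomputed for rank under alternatives other than leaving out a library, 347 stayed on their side of the threshold, 9 no longer passed, 4 newly passed and 0 reversed; for width, 198 of 216 stayed, 2 no longer passed, 14 newly passed and 2 reversed. Most of these differences had not passed under the settings first described and so had no call to lose. By rank, 2 members had passed in CPT1a knockout against scramble and 2 in KAT2a knockout against scramble, and by width 1 in each. The causes of the changes were not tested.

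Members past the threshold by rank, 2 in CPT1a knockout against scramble, became 0 with the GC trend removed and 1 with depth as a covariate. In KAT2a knockout against scramble, 2 became 1 (Maff) on quantile normalised log2 values and 0 with the GC trend removed or depth as a covariate. With acetate against scramble, 0 became 2 when -log10 p was ranked and 1 at equal depth. By width, 1 member (Jund) in CPT1a knockout became 4 with merged peaks (Jun, Maff and Fosl1 narrower as well as Jund), 3 with ranked widths, 2 with depth as a covariate and 0 with the replicate block. In KAT2a knockout 1 became 0 when merged, 3 ranked, 3 with depth and 0 with the replicate block, and with acetate against scramble 0 became 3 ranked and 1 with depth. The reversed differences were those of Jund after merging, at -0.70 in CPT1a knockout and -0.28 in KAT2a knockout.

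All promoters past the threshold by rank, in CPT1a knockout against scramble, numbered 1060, against 3524 when -log10 p was ranked, 2057 at equal depth and 352 with depth as a covariate. In KAT2a knockout 397 became 2452, 1044 and 56 in the same order. With acetate against scramble 574 became 2698, 1125 and 109, and 361 with the GC trend removed, and against CPT1a knockout 0 became 2 with a 500 bp window. By width, 2841 in CPT1a knockout became 7835 merged and 1405 ranked. In KAT2a knockout 313 became 4704 merged, 1057 ranked, 1751 with depth and 49 with the replicate block. With acetate against scramble 644 became 5250 merged, 1239 with depth and 29 with the replicate block, and against CPT1a knockout 0 became 1 ranked.

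When each library was left out in turn, members past by rank ranged from 1 to 2 in CPT1a knockout, from 0 to 2 in KAT2a knockout and stayed at 0 to 0 in both acetate comparisons. By width they ranged from 0 to 2 in both knockouts, 0 to 0 for acetate against CPT1a knockout and 0 to 1 against scramble. All promoters past by rank ranged from 408 to 1121, 36 to 496, 0 to 9 and 124 to 695 (CPT1a knockout, KAT2a knockout, acetate against CPT1a knockout, acetate against scramble), and by width from 1332 to 3086, 5 to 866, 0 to 1 and 6 to 1552. The replicate numbers did not pair the libraries: 0 of 18 same-numbered pairs correlated above 0.1 in their deviations from the group means, and 2 of 12 libraries had their best partner in their own number. The replicate block changed no call of a member by rank. The promoter calls of 9 members in all libraries held under every alternative run.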
